A study of Mus musculus with 6 samples.

Results

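The Bcl2 family of apoptosis genes was examined in mouse oocytes. The set holds 10 genes chosen by name: Bcl2, Bcl2l1, Bcl2l10, Mcl1, Bax, Bak1, Bbc3, Pmaip1, Bcl2l11 and Bid. Of these, 9 had a probe set with a single gene symbol, out of 19938 such genes on the array, and each of the 9 had exactly 1 such probe set. For Bax the array annotation used here lists no single-symbol probe set, and Bax was not analysed here.

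The compared samples were oocytes of homozygous Brwd1 mutant mice (3 samples) and of wildtype mice (3 samples), both on a B6/C3H background. Both groups were at the germinal vesicle stage, the arrest before meiosis resumes, and came from females aged 2 to 6 months that had received 5 IU of equine chorionic gonadotropin, a hormone that makes follicles grow, 44 h before collection. Each sample was a pool of 100 oocytes on its own Affymetrix Gene ST array. The labels give neither the type of the Brwd1 allele nor the number of animals behind a pool, so p-values measure the spread between pools, which may be technical.

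Proteins of this family decide whether the outer mitochondrial membrane is breached. Survival members (Bcl2, Bcl2l1, Mcl1 and relatives) hold the effectors Bax and Bak1 in check, and the BH3-only members (Bbc3, also called Puma; Pmaip1, also called Noxa; Bcl2l11, also called Bim; and Bid) bind survival members or activate effectors. Once effectors open the membrane, cytochrome c is released and the caspases are switched on. In the mouse ovary, Bbc3 and Pmaip1 are known to take part in the loss of oocytes with DNA damage, downstream of Trp63, and Mcl1 is known to keep oocytes alive.

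None of the 9 measured members passed the threshold between mutant and wildtype oocytes (limma on log2 values, Benjamini-Hochberg adjusted p under 0.05). Over all probe sets with a symbol, 0.137% passed. The smallest adjusted p among the members was 0.222. The members' levels differed widely from each other. For the members with the strongest signal, Bcl2l10 and Bcl2l1, the genotypes lay within 0.02 of each other on the log2 scale of the deposited values. Under the alternative settings they stayed within 0.07. The BH3-only gene Bcl2l11 had the largest difference, lower in all 3 mutant samples but short of the threshold.

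**Figure D1:**
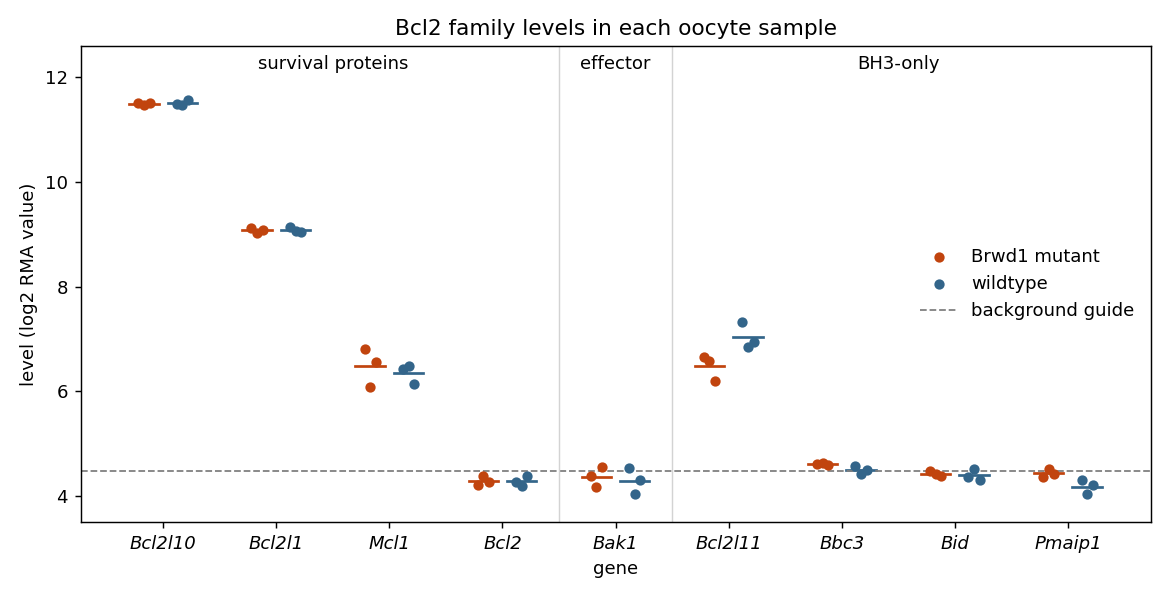
The level of each measured member, as a log2 RMA value, is plotted for the 3 Brwd1 mutant samples (left of each pair) and the 3 wildtype samples, with a line at each group mean and a dashed line at the background guide of 4.48. Bcl2l10 lies near 11.5 in every sample, Bcl2l11 is lower in all mutant samples, and Bcl2, Bak1, Bbc3, Bid and Pmaip1 lie close to the guide.

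Values are RMA values on the log2 scale, and a rank is a gene's place among 19938 genes ordered by mean wildtype level, where 1 is the highest. Signal also depends on a probe set's own probes, so ranks describe the array signal and are not amounts of RNA per oocyte. As a guide to background, the 1210 single-symbol probe sets of olfactory and vomeronasal receptors lay at 3.13 in the median, and 95% of them were at 4.48 or lower. Brwd1 itself, the check of the labels, was at 4.41, 4.56 and 4.50 in mutant 1, 2 and 3 and at 8.91, 9.08 and 8.98 in wildtype 1, 2 and 3. The second principal component, with 19.05% of the variance, set wildtype 3 apart, so the values of Bcl2l11 and of the called genes are also given without it. The 10 oocyte markers, zona pellucida genes among them, all lay above the guide in both groups, with a median level of 11.5 in each.

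Bcl2l10, an ovary-rich relative of Bcl2 also called Diva or Boo in the mouse, was placed with the survival members by assignment. Its effect on survival was not measured. Among the survival members as grouped here, it had by far the highest rank, 47 by the wildtype mean. Its level was 11.51, 11.48 and 11.51 in mutant 1, 2 and 3, against 11.50, 11.48 and 11.56 in wildtype 1, 2 and 3. The groups overlapped, and the whole range of values was no wider than 0.08 within either group. On the log2 scale it differed by -0.013 (n = 3 per group, SE 0.054; limma, adjusted p = 0.928), and its 95% interval ran from -0.14 to 0.11, or 0.907-fold to 1.08-fold. Within single arrays its rank lay between 48 and 53 in the mutant samples and between 40 and 55 in the wildtype samples.

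Bcl2l1, which encodes Bcl-xL, came next among the members at rank 2032. It was at 9.13, 9.02 and 9.09 in the mutant samples, against 9.14, 9.06 and 9.04 in the wildtype samples. Both group means were 9.08, with SDs of 0.056 in the mutant and 0.053 in the wildtype samples (n = 3 per group). The 95% interval of the difference was -0.14 to 0.14. The array reads splice forms of Bcl2l1 together here, so forms with opposite effects on survival could not be separated.

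Mcl1, a survival protein that cells make and destroy quickly, was a mid-level gene at rank 7245 and varied most. Its level was 6.81, 6.08 and 6.56 in mutant 1, 2 and 3, against 6.43, 6.49 and 6.15 in wildtype 1, 2 and 3. Mutant samples held both the highest and the lowest value, and the groups overlapped. Mutant minus wildtype came to 0.13 on the log2 scale (n = 3 per group, SE 0.189; limma, adjusted p = 0.788), with a 95% interval from -0.32 to 0.58. The spread within groups, a pooled SD of 0.29, exceeded that of 96.3% of genes or equalled it, whereas that of Bcl2l10, 0.032, stood at 3.35%. As folds, the interval for Mcl1 spans 0.80 to 1.49, so these 6 arrays do not tell a change within it from no change. The interval is no limit of detection, and larger changes could also miss the threshold.

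Bcl2, the founding survival gene, lay under the background guide in both groups. It was at 4.22, 4.38 and 4.27 in the mutant samples, against 4.26, 4.20 and 4.39 in the wildtype samples. The groups overlapped, differing by 0.0067 (SE 0.075; limma, adjusted p = 0.974). At this level the array gives only an upper bound, and no fold is stated.

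Of the effectors, Bak1 was the one measured, and it also lay under the guide. Its level was 4.39, 4.18 and 4.55 in the mutant samples, against 4.53, 4.04 and 4.30 in the wildtype samples. The groups overlapped across nearly the same range. The log2 difference was 0.083 (SE 0.145; limma, adjusted p = 0.82), and its sign depended on single samples.

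Among the BH3-only members, Bcl2l11 stood well above background, at rank 6969 by the mutant mean and 5914 by the wildtype mean. Its product Bim binds all the main survival proteins. The level was 6.65, 6.58 and 6.20 in mutant 1, 2 and 3, against 7.32, 6.84 and 6.94 in wildtype 1, 2 and 3. Every mutant sample was below every wildtype sample, and the nearest pair, mutant 1 and wildtype 2, differed by less than the range within either group. Group means were 6.48 ± 0.24 in mutant and 7.03 ± 0.25 in wildtype samples (SD, n = 3 per group). The log2 difference was -0.56 (SE 0.162; 95% interval -0.94 to -0.17; limma, unadjusted p = 0.0114, adjusted p = 0.222). As a fold this is 0.68, with an interval from 0.52 to 0.888. Leaving out single samples gave differences between -0.65 and -0.41, and the smallest limma adjusted p among these was 0.238. Without wildtype 3 the difference was -0.60 (limma, adjusted p = 0.256). A difference at least as large as that of Bcl2l11 in the main fit, in either direction, was seen for 1.43% of all genes. Among genes above the guide in both groups the share was 2.01%. These shares ignore the spread within groups, and Bcl2l11 was singled out as the largest difference among the measured members. Its pooled SD of 0.248 exceeded that of 93.4% of genes or equalled it.

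Bcl2l11 and Bbc3 are known targets of Foxo3, a forkhead transcription factor of the oocyte, so their promoter windows are shown. RefSeq windows of GRCm38.p6, each running from 250 bases before a transcript start to 50 after it, were matched for 8 of the 10 members, in 13 windows. They were searched on both strands for the forkhead core GTAAACA, and for no other motif. It was found in 2 of the 13 windows, 1 of Bcl2l11 and 1 of Bbc3, and in 3.65% of all 32851 windows in the table. The 2 windows are printed 5′ to 3′ on the + strand with the match in capitals. In Bcl2l11 (chr2:128125788-128126087) it covers bases 227 to 221 before the start. In Bbc3 (chr7:16310011-16310310) it covers bases 167 to 161 before the start, in the opposite orientation.
Bcl2l11: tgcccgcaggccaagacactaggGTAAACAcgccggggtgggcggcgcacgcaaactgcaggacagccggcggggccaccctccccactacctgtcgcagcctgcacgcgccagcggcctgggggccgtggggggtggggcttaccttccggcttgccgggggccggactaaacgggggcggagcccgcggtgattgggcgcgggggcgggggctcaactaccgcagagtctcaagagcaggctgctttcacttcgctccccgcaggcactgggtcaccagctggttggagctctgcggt
Bbc3: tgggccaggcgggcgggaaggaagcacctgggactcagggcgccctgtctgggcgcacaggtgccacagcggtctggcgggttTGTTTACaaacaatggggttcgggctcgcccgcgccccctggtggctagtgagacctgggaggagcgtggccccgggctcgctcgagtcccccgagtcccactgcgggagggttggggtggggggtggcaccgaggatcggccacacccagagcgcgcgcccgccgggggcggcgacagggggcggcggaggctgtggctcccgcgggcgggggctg

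A match is a string of letters in the reference, and the arrays measured no binding to it. Foxo3, picked out with its values in view, measured 9.76, 9.69 and 9.72 in the mutant samples, against 9.77, 9.80 and 9.80 in the wildtype samples. It differed by -0.067 on the log2 scale (SE 0.053; limma, adjusted p = 0.601).

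Bbc3 lay at the background guide. It was at 4.62, 4.64 and 4.59 in the mutant samples, against 4.57, 4.42 and 4.49 in the wildtype samples. The groups did not overlap, although mutant 3 and wildtype 1 differed by only 0.02. The log2 difference was 0.12 (SE 0.061; 95% interval -0.022 to 0.27; limma, adjusted p = 0.405).

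Pmaip1 lay under the guide in both groups by its means. Its level was 4.36, 4.51 and 4.43 in the mutant samples, against 4.30, 4.03 and 4.21 in the wildtype samples. All mutant values were above all wildtype values. The log2 difference was 0.25 (SE 0.085; 95% interval 0.051 to 0.46; limma, unadjusted p = 0.0214, adjusted p = 0.261), which at this level is a difference of background-like signal and is not given as a fold.

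Bid, which links death receptors to mitochondria once it is cleaved, was under the guide as well. It was at 4.47, 4.43 and 4.39 in the mutant samples, against 4.37, 4.52 and 4.31 in the wildtype samples. The mutant values lay within the wildtype range, and the log2 difference was 0.03 (SE 0.071; limma, adjusted p = 0.873).

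**Figure D2:**
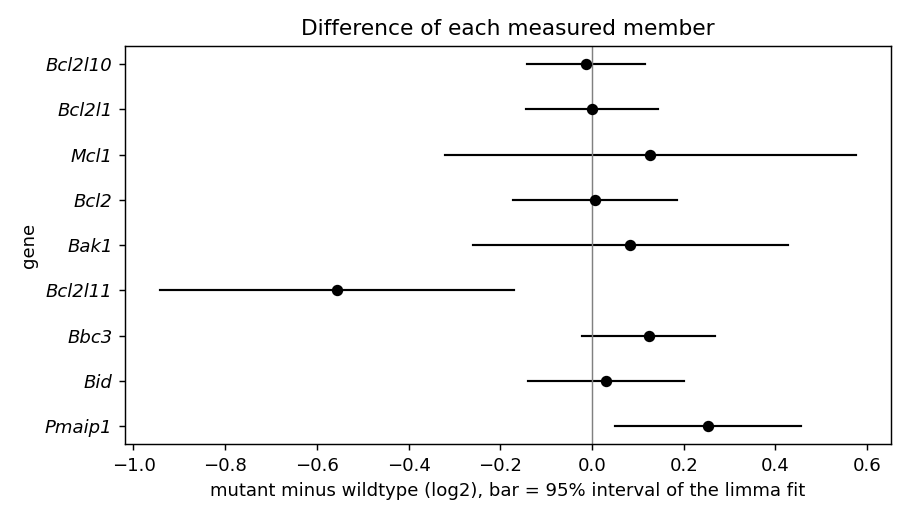
The mutant minus wildtype difference of each measured member is shown on the log2 scale, with bars for the 95% interval of the limma fit. The intervals of Bcl2l11 (-0.94 to -0.17) and Pmaip1 (0.051 to 0.46) leave out 0 before adjustment, and that of Mcl1 (-0.32 to 0.58) is the widest.

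Across the 9 measured members, 6 differences were above 0, 2 were below it and Bcl2l1 was at 0.00, with a median of 0.03, against a median of 0.013 over all 19938 genes. At an unadjusted p under 0.05 there were 2 members, Bcl2l11 lower and Pmaip1 higher, against 14.9% of all genes. The groups did not overlap for 3 members, against 19.8% of all genes: mutant samples were all lower for Bcl2l11, as for 9.33% of genes, and all higher for Bbc3 and Pmaip1, as for 10.5%. With 9 genes these shares are near the background.

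Genes with levels like those of the dim members also tended to be slightly higher in mutant samples. The 4 members with a group mean under the guide (Bcl2, Bak1, Bid and Pmaip1) had mean levels from 4.29 to 4.42 and a median difference of 0.057. All 549 genes in that range had a median difference of 0.06, with 402 above 0 and 144 below. Bcl2l11 and Mcl1 lie instead in the range where the medians of level deciles are below 0. The decile with a median level of 6.48 had a median difference of -0.023, against -0.56 for Bcl2l11 and 0.13 for Mcl1.

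**Figure D3:**
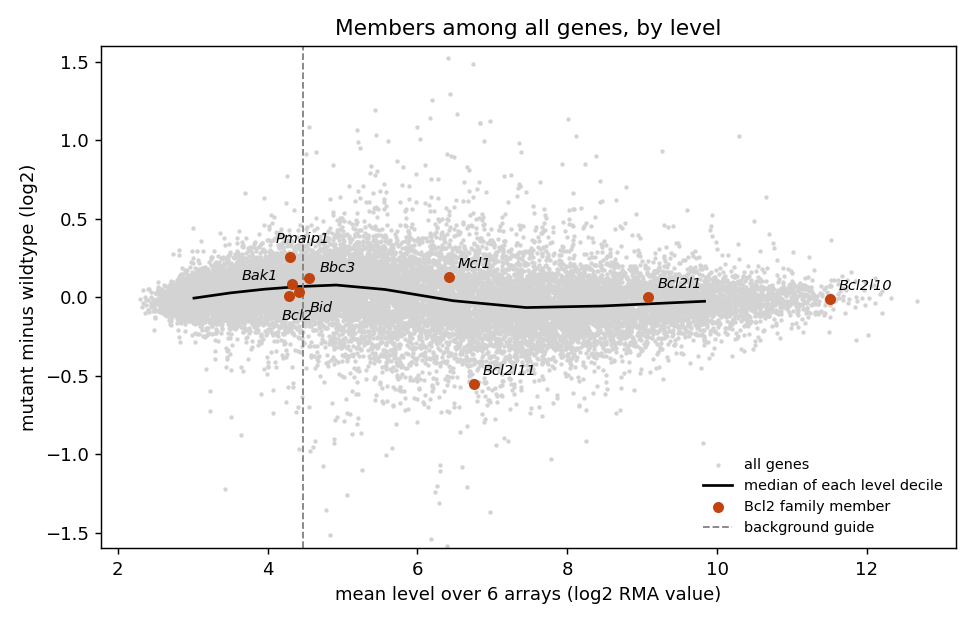
The mutant minus wildtype difference (log2) of every gene is plotted against its mean level over the 6 arrays, with the 9 members in colour, the median of each level decile as a line and the background guide of 4.48 as a dashed line. The 9 genes of 19938 with a difference beyond 1.6 lie outside the axis, and Bcl2l11 at -0.56 is the member farthest from the line.

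As list means, markers of other cell types lay within 1 log2 unit of the guide. Single markers lay far above it, with mean levels over the 6 arrays of 8.97 for Nr5a2, 8.02 for Gata4 and 7.75 for Pecam1. The mean log2 level of 10 blood, immune and endothelial markers was 4.73 to 4.85 in mutant and 4.56 to 4.67 in wildtype samples, with 9 of 10 higher and 0 past the threshold. C1qb, a complement gene of macrophages, was the brightest marker of this list after Pecam1. Its level was 6.71, 6.92 and 7.06 in the mutant samples, against 5.74, 5.76 and 6.49 in the wildtype samples. The difference was 0.90 (SE 0.210; limma, adjusted p = 0.162). Without C1qb, a choice made after seeing the data, the other 9 averaged 4.51 to 4.61 in mutant and 4.43 to 4.48 in wildtype samples. Ptprc, which marks white blood cells, was at 3.93 and 3.88 in mutant and wildtype samples, under the guide. Csf1r, Adgre1 and Lyz2 of the same list were under it too, with mean levels over the 6 arrays of 3.39, 3.35 and 3.42. By that mean, Cdh5 at 4.50 and Kdr at 4.46 lay near the guide. Of the list's markers above the guide in both groups, Cd68 differed by -0.07, C1qa by 0.18 and Pecam1 by 0.18. The mean of 8 theca and stroma markers was 4.37 to 4.42 in mutant and 4.30 to 4.35 in wildtype samples (5 higher, 3 lower), and that of 14 granulosa and cumulus markers 5.14 to 5.24 in mutant and 5.12 to 5.16 in wildtype samples (9 higher, 4 lower), again with 0 past the threshold. Every mutant value was higher for Col3a1 of the stroma list, at 0.27, and for Gata4 of the granulosa list, at 0.29 (limma, adjusted p = 0.167 and 0.170). The same held for Col1a1 of the stroma list, at 0.12, and for Amhr2 of the granulosa list, at 0.19 but under the guide in both groups. Ptgs2 of the granulosa list went the other way, with every mutant value lower and a difference of -0.57 (limma, adjusted p = 0.252). Has2, the largest rise of that list at 0.49, had overlapping groups (limma, adjusted p = 0.267). The groups did not overlap for 25% of the stroma list, 21.4% of the granulosa list and 10% of the blood, immune and endothelial list. The share over all genes was 19.8%, so the stroma and granulosa shares are near the background. Above the guide in both groups were 4 of 10, 3 of 8 and 9 of 14 markers of these lists, while Cyp17a1 of theca cells (3.52 in mutant and 3.47 in wildtype samples) and Fshr of granulosa cells (4.28 in mutant and 4.19 in wildtype samples) lay under it. Their part in the small upward differences of Bbc3 and Pmaip1 was not tested. In pooled oocytes, fewer cells with a transcript and less of it per cell cannot be told apart.

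The other genes of the pathway were taken from 6 lists. Of 72 genes, 63 were measured, and 1 rose and 1 fell past the threshold, with a median difference of 0.0033 over the 63. Over all 19938 genes, 9 rose and 12 fell past it. The fall was Cyct, the testis form of cytochrome c, and the rise was Trp73, a relative of p53 that can switch on Bbc3. Both results were known when the lists were drawn up, so they are no independent support.

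In the list of apoptosome and released mitochondrial proteins, all 11 genes were measured and lay above the guide. Of them, 9 were lower in mutant samples, with a list median of -0.11. Of all 12403 genes above the guide in both groups, 6325 were lower, with a median of -0.0067. The level deciles with median levels of 7.45 and 8.47 had median differences of -0.067 and -0.057. Cyct was at 6.49, 6.43 and 6.49 in the mutant samples, against 7.19, 7.10 and 7.10 in the wildtype samples. The groups were far apart relative to their spread, and differed by -0.66 on the log2 scale (SE 0.057; limma, adjusted p = 0.0297). The call ended without any 1 of the 6 samples, at limma adjusted p from 0.0502 (without wildtype 3) to 0.156, while the difference stayed between -0.68 and -0.63, and it also ended when all probe sets of the table were tested (limma, adjusted p = 0.0729). Cycs, the cytochrome c of other tissues, is added with its values in view and averaged 9.79 in mutant and 9.82 in wildtype samples. Vdac2, a channel of the outer membrane that binds Bak1, differed by 0.46 (SE 0.080; limma, adjusted p = 0.122), with values of 9.55, 9.47 and 9.52 in mutant and 9.06, 8.92 and 9.19 in wildtype samples. A further probe set of Vdac2 was at 0.35 (limma, adjusted p = 0.112). Htra2, a protease released from mitochondria, differed by -0.39 (SE 0.082; limma, adjusted p = 0.149).

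Of the 16 other Bcl2 family genes, 13 were measured, 10 lay above the guide and 0 passed, with 6 higher, 6 lower and a median of 0.00. Bcl2l15, a little-studied relative, was at 7.69, 7.64 and 7.64 in mutant samples, against 6.84, 7.43 and 6.76 in wildtype samples. The 3 mutant values lay close together above all wildtype values, and the log2 difference was 0.65 (SE 0.169; limma, adjusted p = 0.193). Bnip3, which acts in the removal of mitochondria, was at 7.34, 7.27 and 7.30 in mutant samples, against 7.58, 7.72 and 7.66 in wildtype samples. That difference was -0.35 (SE 0.061; limma, adjusted p = 0.122), and a further probe set was at -0.23. Hrk, a BH3-only gene best known in neurons, differed by 0.24 (SE 0.074; limma, adjusted p = 0.236).

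**Figure D4:**
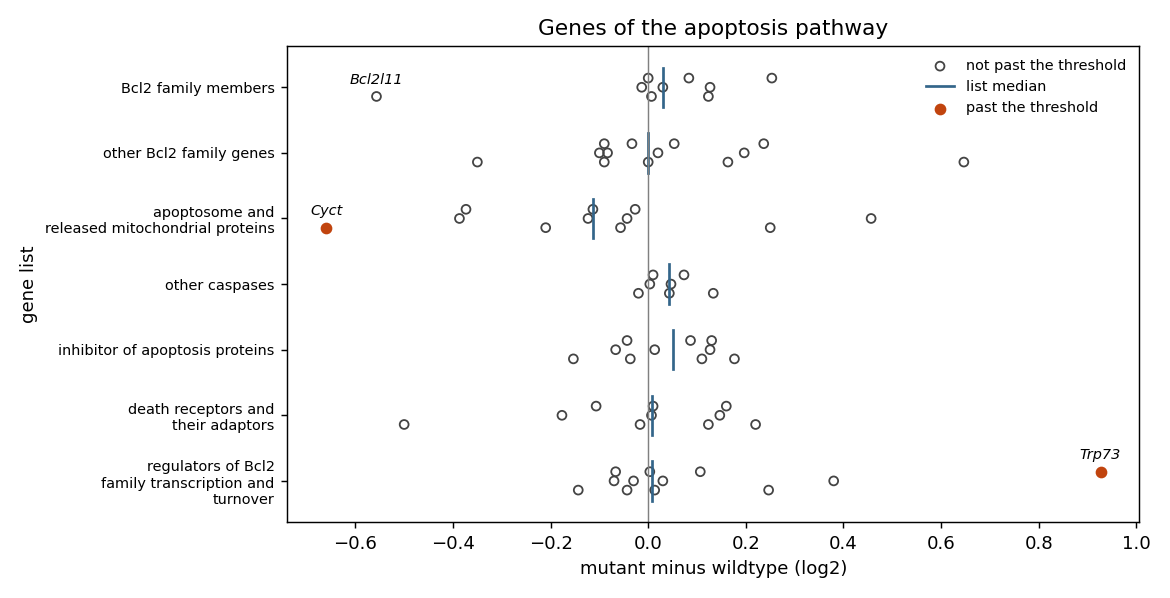
Each circle is a gene's mutant minus wildtype difference on the log2 scale, for the Bcl2 family members and the 6 pathway lists, with a line at each list's median and filled circles for genes past the threshold. Cyct at -0.66 and Trp73 at 0.93 are the filled circles, and no Bcl2 family member is filled.

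The list of regulators of Bcl2 family transcription and turnover had 12 of 14 genes measured, 1 of which rose and 0 fell, with a median of 0.0083. Trp73 was at 7.90, 7.86 and 7.77 in mutant samples, against 6.82, 6.83 and 7.10 in wildtype samples. All mutant values were higher, and the log2 difference was 0.93 (SE 0.091; limma, adjusted p = 0.0297). Of the 6 omissions of a sample, the call held in 1, that of wildtype 3 (limma, adjusted p = 0.0267), and the difference lay between 0.88 and 1.02. It ended as well with all probe sets of the table (limma, adjusted p = 0.0729). Trp63, whose product triggers Bbc3 and Pmaip1 in damaged oocytes, differed by 0.25 (SE 0.076; limma, adjusted p = 0.23), with values of 8.74, 8.60 and 8.57 in mutant and 8.41, 8.29 and 8.47 in wildtype samples. Fbxw7, part of a ubiquitin ligase that marks Mcl1 for destruction, differed by 0.38 (SE 0.127; limma, adjusted p = 0.259) on its brighter probe set and by 0.04 on the other, so the probe sets disagree.

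The remaining lists gave 0 calls. Of 11 death receptor and adaptor genes, 10 were measured and 3 lay above the guide. Fadd, the adaptor that joins death receptors to caspases, was at 7.75, 7.78 and 7.68 in mutant samples, against 8.45, 8.15 and 8.11 in wildtype samples. The difference was -0.50 (SE 0.099; limma, adjusted p = 0.136), with every mutant value lower. Tradd, an adaptor of the tumour necrosis factor receptor, was at -0.18 and Tnfrsf25, a death receptor at the guide, at 0.12. Of 11 inhibitor of apoptosis genes, 10 were measured with a median of 0.05, where Birc7 was at 0.18, Birc2 at 0.13 and Birc6 at -0.15. A further probe set of Birc2 was at 0.017. The wildtype mean of Birc7, 4.43, lay under the guide. Of 9 other caspases, 7 were measured, and only Casp2 and Casp8 of the 7 lay above the guide in both groups. The smallest p-values in that list belonged to Casp12 at 0.073, Casp6 at 0.13 and Casp14 at 0.043 (limma, adjusted p of at least 0.591 for each gene of the list). Leaving out 1 sample moved Birc6 between -0.24 and -0.092, Casp6 between 0.02 and 0.24, Casp12 between 0.052 and 0.10 and Casp14 between 0.012 and 0.072.

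The genes most like Bcl2l10 and Mcl1 over the 6 arrays were sought among 9967 genes above the median level, as a description without a test. For Bcl2l10 they were Trib1, Shroom2 and Cobll1, with Pearson's r of 0.990, 0.989 and 0.988 across 6 arrays. For Mcl1 they were Ktn1, Yeats4 and Hoxd9, with r of 0.982, 0.978 and 0.974. The arrays share their normalization, a search of this size over 6 points finds high values readily, and the differences of Bcl2l10 between arrays were at most 0.08.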

How the data were processed

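RNA extracted on Qiagen columns was amplified from 1 ng and biotin-labelled with NuGEN kits, per the labels' protocols. Per the submitters' processing notes, the authors made the deposited log2 values with Affymetrix Expression Console 1.1 and RMA. RMA makes the arrays' distributions alike, so a change in total RNA per oocyte cannot be seen and differences of dim genes are compressed. Small differences between arrays remained. Medians were 4.71, 4.79 and 4.77 in mutant 1, 2 and 3, against 4.71, 4.70 and 4.69 in wildtype 1, 2 and 3. Upper quartiles, in the same order, were 7.09, 7.04 and 7.07 in mutant, against 7.12, 7.10 and 7.11 in wildtype samples. Of 35556 probe sets, 21789 had 1 gene symbol in the array annotation, 1621 several and 12146 none. All 23410 with a symbol entered a two-sided fit without covariates (lmFit and eBayes of limma 3.58.1, run under R 4.3.3), with Benjamini-Hochberg adjustment over them at 0.05. Standard errors and 95% intervals come from that fit. The procedure was tested on simulated data, where recovery was required only for changes far larger than those of the members. Each gene stands by its brightest single-symbol probe set. A pathway gene was named if it passed or had 1 of the 3 smallest p-values of its list. The members and lists were chosen with earlier results of these data known. The number of arrays limits the precision. Same-numbered mutant and wildtype samples did not deviate together (r = -0.0015, -0.031 and 0.036 across probe sets), so they were not paired. The alternatives were a replicate block, 3 renormalizations, a level filter, array weights, a trended robust eBayes, all probe sets, the mean of a gene's probe sets and leaving out each sample.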

Additional observations from a re-analysis of the deposited data

How the results depend on the processing

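No Bcl2 family member passed under any alternative: the count was 0 of 9 in each (4 of 9 remained with the level filter). Bcl2l11 kept its sign throughout, from -0.65 to -0.41 (limma, adjusted p from 0.174 to 0.412), as did Bbc3 and Pmaip1 in the alternatives that kept them. Their sizes fell with renormalization. Bbc3, at 0.12 in the main fit, was at 0.065 after quantile normalization again, 0.055 after cyclic loess and 0.067 after median centring. Pmaip1, at 0.25 in the main fit, was at 0.198, 0.192 and 0.197 in the same order. Signs near 0 turned. Bcl2 was at -0.052 after quantile normalization again, -0.054 after cyclic loess and -0.05 after median centring, and Bid, in the same order, at -0.025, -0.035 and -0.027. Bcl2l10 was at 0.012 after cyclic loess, and Casp14 at -0.013 after median centring. Without a turn of sign, Bcl2l10 was at -0.07 after median centring. Bcl2l1, at 0.00 in the main fit, was at -0.057 after median centring and at 0.043 after quantile normalization again. Leaving out 1 sample gave ranges of -0.038 to 0.06 for Bcl2, -0.03 to 0.01 for Bcl2l10, -0.037 to 0.33 for Mcl1, -0.042 to 0.20 for Bak1 and -0.015 to 0.09 for Bid. Over all probe sets the count of 32 became 76 with trend and robust settings, 1 with all probe sets of the table and 1 with the replicate block, and 1 to 18 without 1 sample. The counts of the apoptosome list and of the regulator list, 1 each, were 0 with all probe sets and 0 with the replicate block, where 1 of the 3 wildtype samples correlated best with the mutant sample of its own number. With the replicate block, limma adjusted p was 0.15 for Cyct and 0.158 for Trp73, so both calls ended there. Without 1 sample they were 0 for the apoptosome list and 0 to 1 for the regulator list. The median wildtype level of the members, 4.49, did not move when probe sets of a gene were averaged. Levels under the guide of 4.48 limit Bcl2, Bak1, Bid and Pmaip1.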
